A study of Mus musculus with 16 samples.

Results

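The comparison described here set leukemic cells against the rest of the marrow of the same kind of host. It used 8 of the 16 libraries of the series: 4 tumor and 4 stroma libraries from wild type (WT) C57BL/6J mice with untreated B cell acute lymphoblastic leukemia (B-ALL). The members were chosen by their labels alone, as all WT libraries of either compartment, and no measured value entered that choice. Each host, 6 to 8 weeks old, had received 500000 BCR-ABL+ B-ALL cells by tail vein, and marrow was collected from the femur and tibia 8 days later. The injected line derives from a male mouse, carries luciferase and was marked with mCherry by a retrovirus, so that it is a single engineered line and not a spectrum of leukemias. After red cell lysis, live mCherry+ cells were sorted as tumor and live mCherry- cells as stroma, so "stroma" here means every live marrow cell that lacked the marker, and not mesenchymal stroma in the narrow sense. No other agent was given, and the WT hosts carried an intact Il6 gene. The other 8 libraries were the same compartments from mice lacking Il6 (IL-6 KO), and they were used only to repeat the comparison.

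B-ALL grows from B cell precursors that are arrested while they assemble their antibody genes. Such cells use the transcription factors Pax5 and Ebf1 and make a surrogate light chain, from Igll1 and the Vpreb genes, that pairs with the heavy chain in the pre-B cell receptor. BCR-ABL is a fusion kinase that drives growth through STAT5, PI3K and Myc. The marrow around the leukemia makes red cells, neutrophils, monocytes, platelets and other blood cells, and it also holds the mesenchymal and endothelial cells that support blood formation. Erythroid precursors are filled with globin, heme enzyme and membrane skeleton transcripts, whereas maturing neutrophils store granule protein transcripts.

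The genes that set the 2 compartments apart most plainly are preceded in the genome by short regulatory stretches, of which 3 are shown because they belong to one B cell precursor gene and to a globin gene and a heme synthesis gene that were higher in stroma. They are the 250 bases before the RefSeq transcription start in GRCm38.p6, written 5′ to 3′ on the strand of the gene. Capitals mark a match to CCCNNGGG, a form of the EBF1 site, to AGATAA, bound by erythroid factors of the GATA family, or to CCACACCC, bound by Krüppel-like factors, each searched on both strands. The Igll1 stretch lies at chr16:16863986-16864235 on the minus strand, the Hbb-bs stretch at chr7:103827929-103828178 on the minus strand and the Alas2 stretch at chrX:150547167-150547416 on the plus strand. Gene positions given further on come from GENCODE, in which Hbb-bs and Alas2 begin upstream of the RefSeq start and so reach into these stretches.
Igll1: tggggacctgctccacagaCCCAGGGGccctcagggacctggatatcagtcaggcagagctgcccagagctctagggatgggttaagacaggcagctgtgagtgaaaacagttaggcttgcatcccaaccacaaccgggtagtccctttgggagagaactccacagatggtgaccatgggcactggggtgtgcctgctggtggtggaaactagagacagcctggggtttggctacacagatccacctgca
Hbb-bs: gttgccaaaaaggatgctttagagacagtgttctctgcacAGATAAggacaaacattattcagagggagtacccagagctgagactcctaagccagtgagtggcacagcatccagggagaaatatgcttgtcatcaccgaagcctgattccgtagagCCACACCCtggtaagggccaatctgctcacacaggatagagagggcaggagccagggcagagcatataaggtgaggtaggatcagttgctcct
Alas2: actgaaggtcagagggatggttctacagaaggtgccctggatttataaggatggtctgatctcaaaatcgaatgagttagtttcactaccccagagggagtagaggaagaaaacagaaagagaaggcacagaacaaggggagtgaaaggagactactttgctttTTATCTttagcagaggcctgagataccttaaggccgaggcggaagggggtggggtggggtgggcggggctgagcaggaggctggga
In the Alas2 stretch the GATA letters read on the opposite strand. Among 32851 RefSeq promoter windows of the same length, 11.82% held CCCNNGGG, 9.99% held AGATAA and 3.20% held CCACACCC. Of the 17 B cell precursor genes higher in tumor that had a window, 2 held CCCNNGGG and 0 held AGATAA. Of the 15 erythroid genes higher in stroma that had a window, 5 held CCCNNGGG, 4 held AGATAA and 1 held CCACACCC. A match describes letters only, and binding was not measured.

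The values are normalized counts that the authors made separately for tumor and for stroma, and all 8 columns were brought to one scale by the median ratio over genes above 0 in every library. This rescaling divided tumor columns by 3.14 to 3.15 and stroma columns by 0.335 to 0.342. Genes listed for only 1 compartment are given at their values before rescaling, which cannot be set beside rescaled counts. A log2 fold change is the mean log2(value + 1) of the tumor libraries minus that of the stroma libraries, so that a positive value means higher in tumor. Depth was estimated from the value of a single read, at 2.62e+07 to 3.98e+07 reads in the tumor libraries and 1.19e+07 to 4.13e+07 in the stroma libraries. Tumor libraries resembled each other closely, with Spearman correlations of 0.984 to 0.990 across genes, whereas stroma libraries correlated at 0.834 to 0.902. Between compartments the correlation was 0.541 to 0.594. The first principal component, which held 69.4% of the variance, placed all tumor libraries on one side and all stroma libraries on the other. On the second component, which held 13.2%, stroma replicate 1 stood apart at 134 while the other stroma libraries lay between -73.5 and -28.8, and this library was also the shallowest. The labels do not say whether tumor and stroma libraries of the same number came from one mouse.

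Of 11783 genes tested, 3723 were higher in tumor and 3458 were higher in stroma at an adjusted p under 0.05 (limma), or 31.6% and 29.3% of those tested. Without stroma replicate 1 the counts were 3909 and 3813. By the plainer criterion that every tumor library lay above every stroma library, 3776 genes were higher in tumor (32.0%), and 3376 genes had every tumor library below every stroma library (28.7%). Among the called genes, 6198 differed by more than 1 on the log2 scale, 3682 by more than 2 and 585 by more than 5. The counts given for each gene list are read against this background. The median log2 fold change over all genes was 0.18, and it moved to -0.10 when the libraries were scaled over genes with a mean over 100 in both compartments. Tumor and stroma tables were normalized apart, so a small fold change rests on the scaling chosen here, and fewer cells of a type and less RNA per cell cannot be told apart in such bulk libraries. Nor do the labels say that the 4 libraries of a compartment came from separate mice, so the p-values measure the spread between these libraries.

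**Figure D1:**
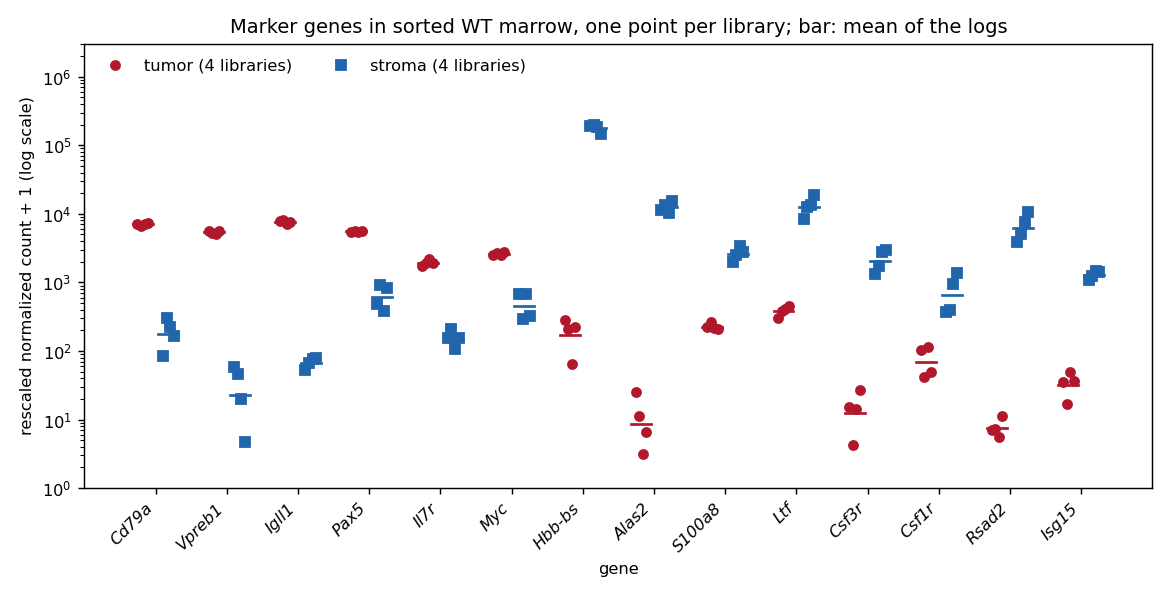
Rescaled normalized counts plus 1, on a log scale, of 14 marker genes in each WT library, with tumor libraries as red circles, stroma libraries as blue squares and bars at the mean of the log values. The 6 B cell and growth genes at the left lie higher in all 4 tumor libraries, and the 8 erythroid, myeloid and interferon genes at the right lie higher in all 4 stroma libraries.

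The tumor libraries carried the transcripts of a pre-B cell. Of 30 tested genes of pro-B and pre-B cells, 21 were higher in tumor and 3 were higher in stroma, with a median log2 fold change of 2.67 against 0.18 over all genes, and leaving out any library changed these counts to at most 20 to 21 and 3 to 4. Cd79a, a signaling chain of the antigen receptor (chr7:24897381-24902197), had rescaled counts of 7183, 6671, 7165 and 7225 in the tumor libraries and 82.3, 306, 224 and 166 in the stroma libraries (log2 fold change 5.32 ± 0.35 (SE), adjusted p = 2.03e-06). Every tumor value exceeded every stroma value many fold, but Cd79a was not absent from stroma.

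The surrogate light chain genes differed most within this list. Igll1 (chr16:16860671-16863985), whose upstream stretch is printed above, had counts of 7839, 7991, 7218 and 7563 in the tumor libraries and 50.9, 65.3, 75.2 and 78.9 in the stroma libraries (log2 fold change 6.82 ± 0.18 (SE), adjusted p = 3.60e-08). Vpreb1, its partner on the same chromosome, had 5695, 5188, 5144 and 5545 in the tumor libraries and 58.2, 44.9, 19.2 and 3.73 in the stroma libraries (log2 fold change 7.90 ± 0.68 (SE), adjusted p = 1.10e-05). The stroma values of Vpreb1 ran over more than a 10-fold range, and its fold change had a wider error than that of Igll1. The B lineage transcription factor Pax5 had 5506, 5548, 5495 and 5568 in the tumor libraries and 485, 930.2, 381 and 824 in the stroma libraries (log2 fold change 3.17 ± 0.27 (SE), adjusted p = 9.95e-06), with tumor values that hardly varied. The interleukin 7 receptor chain Il7r had 1729.8, 1947, 2173 and 1936 in the tumor libraries and 154, 205, 107 and 152 in the stroma libraries (log2 fold change 3.68 ± 0.22 (SE), adjusted p = 1.20e-06), and the immunoglobulin heavy chain constant gene Ighm had 8405, 8636, 8002 and 7512 in the tumor libraries and 605, 951, 712 and 935 in the stroma libraries (log2 fold change 3.37 ± 0.17 (SE), adjusted p = 4.52e-07). All of these separated the compartments without overlap.

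Other members, named after their values were seen, moved alike. Vpreb2, another surrogate light chain gene, had 2905, 2776, 2661 and 2813 in the tumor libraries and 16.3, 0, 19.2 and 0 in the stroma libraries. Its log2 fold change was 9.33 ± 1.02, and that of Lef1 was 6.35 ± 0.72, of Vpreb3 5.84 ± 0.63, of Pou2af1 5.60 ± 0.25 and of Cd79b 5.59 ± 0.58 (SE). The recombinase gene Rag1 rose by 2.75 ± 0.18 and the B lineage factor Ebf1 by 2.52 ± 0.34 on the same scale. Rag2 was listed in the tumor table alone, at 1314, 1081, 1362 and 1096 normalized counts before rescaling. The terminal transferase gene Dntt was low on both sides, at 21.7, 33.1, 40.8 and 30.8 in the tumor libraries and 26.3, 27.3, 56.4 and 46.7 in the stroma libraries, and the groups overlapped. Tcf3, an early B lineage factor, had a log2 fold change of 1.18 ± 0.16. Against this direction went Cd24a, a surface glycoprotein of B precursors that red cell precursors and neutrophils also carry, with 2035, 2260.0, 1933 and 1833 in the tumor libraries and 16919, 21829.8, 12779.5 and 18776 in the stroma libraries (log2 fold change -3.10 ± 0.17 (SE), adjusted p = 7.17e-07). Blk (-1.47 ± 0.33) and Cd72 (-1.95 ± 0.30) were also higher in stroma.

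Genes of later B cell stages were fewer. Of 10 tested genes of mature B and plasma cells, 5 were higher in tumor and 2 in stroma, with a median of 1.41. Mzb1, a chaperone of immunoglobulin assembly, had 3834, 3430.0, 3075 and 3243 in the tumor libraries and 12.2, 106, 191 and 32.8 in the stroma libraries (log2 fold change 5.94 ± 0.71 (SE), adjusted p = 8.80e-05). Ighd, the IgD heavy chain gene that marks mature naive B cells, had 235, 372, 351 and 311 in the tumor libraries and 63.3, 27.5, 61.3 and 32.3 in the stroma libraries (log2 fold change 2.83 ± 0.37 (SE), adjusted p = 1.57e-04), which is far below Ighm in the same libraries: per kilobase of transcript, mean levels in tumor were 4793 for Ighm and 176 for Ighd. Cr2, a complement receptor, had 174, 200.2, 583 and 193 in the tumor libraries and 10.8, 7.74, 6.23 and 83.6 in the stroma libraries (log2 fold change 3.99 ± 0.80 (SE), adjusted p = 0.00208), and tumor replicate 3 was the highest. Xbp1, a factor of antibody secreting cells, was higher in stroma (log2 fold change -0.84 ± 0.26, adjusted p = 0.0185), with overlapping groups, and the adjusted p was 0.0515 without tumor replicate 1 and 0.0504 without tumor replicate 2. Ms4a1, which encodes CD20, was listed in the stroma table alone, at a mean of 8.43 normalized counts before rescaling.

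**Figure D2:**
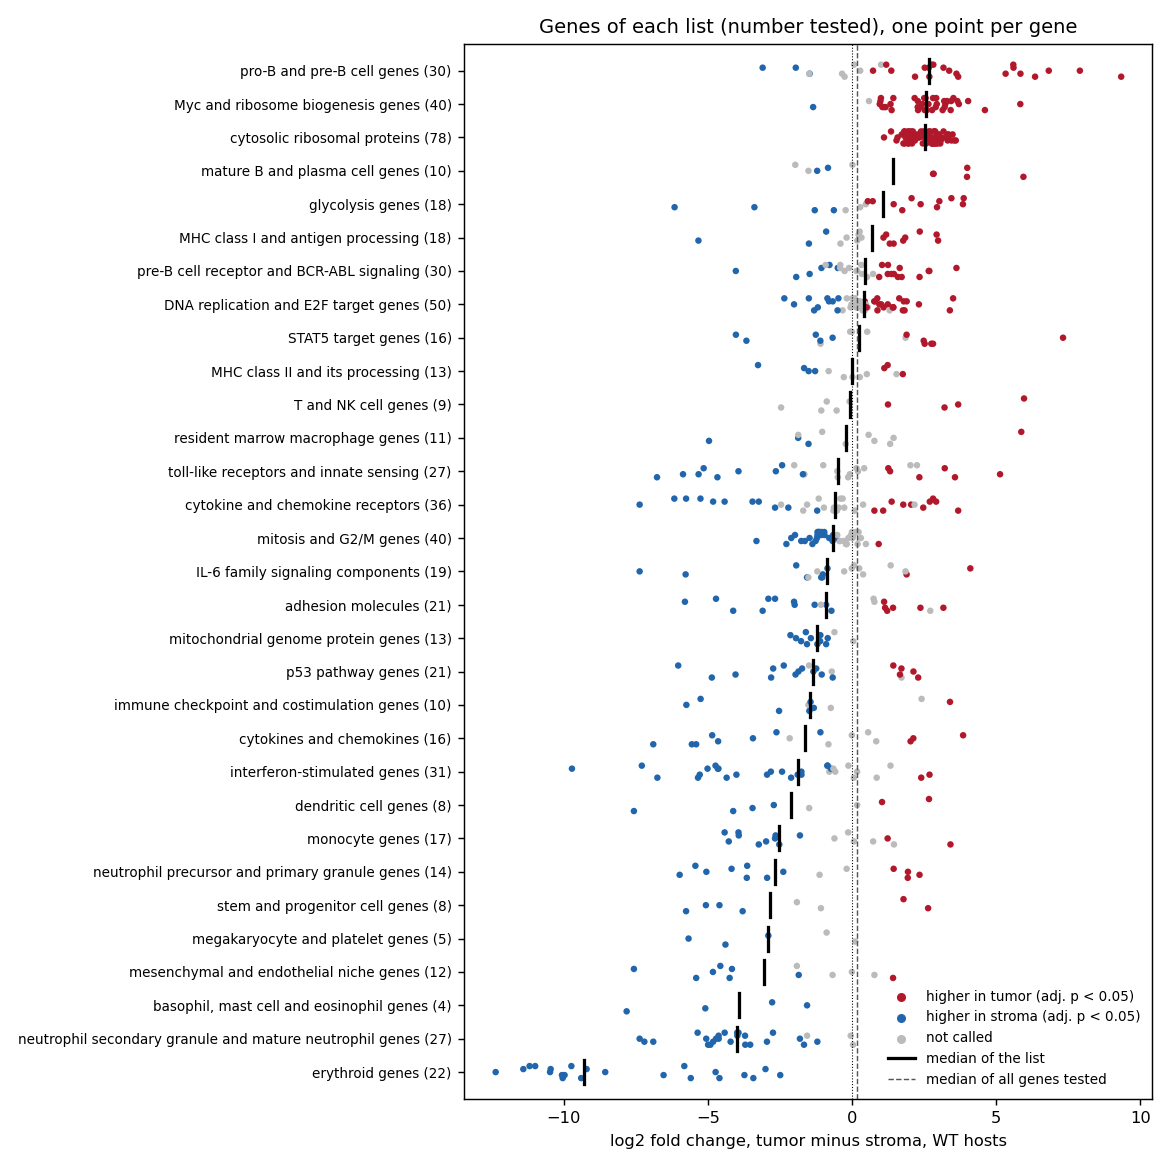
Log2 fold change of tumor minus stroma in WT hosts for each tested gene of 31 gene lists, sorted by the median, with red points called higher in tumor, blue points called higher in stroma and grey points not called. Black bars mark the medians of the lists, from 2.67 for pro-B and pre-B cell genes to -9.30 for erythroid genes, and the dashed line marks the median over all genes, 0.18.

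Genes of several kinds lay furthest toward tumor. Among protein-coding genes with a mean of at least 100 in the higher compartment, the 12 with the largest log2 fold change toward tumor were Tmem119 (9.67), Lxn (8.67), Col6a6 (8.09), Rtn1 (7.81), Cacna1b (7.51), Txnrd3 (7.35), Gfra2 (7.20), Crip1 (6.96), Frmd6 (6.95), Xxylt1 (6.90), 2900026A02Rik (6.84) and Igll1 (6.82). Of these 12 genes, all but Crip1 and Igll1 had at least 1 stroma library listed at 0, and their fold changes depend on the pseudocount. Genes with a near-identical copy and antigen receptor segments were not ranked, which kept out the B lineage genes Vpreb2 (9.33) and Vpreb1 (7.90). Tmem119, a membrane protein gene known from bone forming cells and microglia (chr5:113793729-113800516), had 4648, 5027, 4644 and 5922 in the tumor libraries and 0, 0, 86.5 and 15.8 in the stroma libraries. Of its stroma libraries, 2 were listed at 0. Lxn, a carboxypeptidase inhibitor gene, had 1560.1, 1732, 1618 and 1470.2 in the tumor libraries and 32.03, 0, 0 and 6.06 in the stroma libraries, again with 2 stroma libraries listed at 0. Crip1, a LIM domain protein gene, was detected in every stroma library, with 4737, 4608, 4836 and 5365 in the tumor libraries and 59.3, 20.4, 82.7 and 20.5 in the stroma libraries (log2 fold change 6.96 ± 0.44 (SE), adjusted p = 1.71e-06). Gfra2, a receptor for glial derived neurotrophic factors, had 2304, 1962, 1956 and 2274 in the tumor libraries and 0, 72.2, 42.2 and 12.8 in the stroma libraries. In each of these genes the tumor libraries were uniform and the stroma libraries were low.

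Transcripts of the kinase genes that form the fusion were higher in tumor. Abl1 had 4443, 4417, 4559 and 4732 in the tumor libraries and 1476, 1535, 2216 and 714 in the stroma libraries (log2 fold change 1.72 ± 0.29 (SE), adjusted p = 7.78e-04), and Bcr had 2364, 2379, 2523 and 2778 in the tumor libraries and 916, 999, 1142 and 1217 in the stroma libraries (log2 fold change 1.24 ± 0.14 (SE), adjusted p = 6.22e-05). Reads of the fusion and of the normal genes were not told apart in these tables. Of 30 tested genes of pre-B cell receptor and BCR-ABL signaling, 13 were higher in tumor and 6 in stroma, with a median of 0.43. Inpp5d, which encodes the phosphatase SHIP1, had 7023, 6918, 7222 and 6614 in the tumor libraries and 833, 1006, 2579 and 1629.8 in the stroma libraries (log2 fold change 2.34 ± 0.31 (SE), adjusted p = 1.66e-04). Pik3cd, the PI3K catalytic subunit of leukocytes, had a log2 fold change of 1.59 ± 0.34, Plcg2, a phospholipase downstream of the receptor, of 1.04 ± 0.16, and Btk and Blnk of 2.66 and 3.62. Members higher in stroma included the receptor kinase Syk (-0.78 ± 0.19) and Stat5b (-1.06 ± 0.15). Stat5a overlapped between compartments, at 469, 263, 417 and 381 in the tumor libraries and 311, 860.3, 192 and 782 in the stroma libraries (adjusted p = 0.654).

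STAT5 target genes did not move as a block. Of 16 tested, 6 were higher in tumor and 5 in stroma, with a median of 0.26. Socs2, a feedback inhibitor of cytokine receptors, had 958, 849, 784 and 915 in the tumor libraries and 0, 71.7, 0 and 11.5 in the stroma libraries (log2 fold change 7.32 ± 1.26 (SE), adjusted p = 7.99e-04), and 2 stroma libraries were listed at 0. The cyclin gene Ccnd3 had 15498, 15295, 18500.2 and 15318 in the tumor libraries and 2664, 2593, 3344 and 2969 in the stroma libraries (log2 fold change 2.48 ± 0.13 (SE), adjusted p = 4.94e-07). Ccnd2 was called higher in tumor (2.75 ± 1.06, adjusted p = 0.0468) although stroma replicate 2, at 5634, exceeded every tumor library, and this call was lost without any one of tumor replicates 2, 3 and 4 or stroma replicates 1, 3 and 4, with adjusted p from 0.0856 to 0.128. In the opposite direction, the kinase gene Pim1 had 2738, 2395, 2525 and 2696 in the tumor libraries and 5601, 4839, 6029 and 5786 in the stroma libraries (log2 fold change -1.10 ± 0.12 (SE), adjusted p = 4.14e-05), the survival gene Bcl2l1 had a log2 fold change of -1.26 ± 0.18 and Mcl1, another survival gene, of -0.68 ± 0.17. Cish, a classical STAT5 target, had 162, 239.5, 97.5 and 181 in the tumor libraries and 296, 217, 1146 and 196 in the stroma libraries (adjusted p = 0.115), and its groups overlapped. Cd69 and Il2ra, the latter an interleukin 2 receptor chain, were listed in the tumor table alone, at means of 570 and 217 normalized counts before rescaling.

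Growth genes were higher in tumor almost throughout their lists. Myc, the transcription factor that drives ribosome production, had 2485, 2679.9, 2477 and 2799.9 in the tumor libraries and 682, 287, 682 and 319.6 in the stroma libraries (log2 fold change 2.52 ± 0.30 (SE), adjusted p = 8.61e-05). Of 40 tested genes of Myc and ribosome biogenesis, 38 were higher in tumor and 1 in stroma, with a median of 2.57. Npm1, a nucleolar chaperone, had 12110.3, 13254, 13445 and 12163 in the tumor libraries and 2754, 1717, 2071 and 1734 in the stroma libraries (log2 fold change 2.65 ± 0.16 (SE), adjusted p = 1.43e-06), Ncl had a log2 fold change of 1.16 ± 0.12, Mybbp1a of 3.65 ± 0.53 and the mitochondrial chaperone gene Hspd1 of 3.20 ± 0.17. The exception in stroma was Odc1, the entry enzyme of polyamine synthesis, with 3822, 3605, 3636 and 3698 in the tumor libraries and 7163, 9918, 8615 and 12832 in the stroma libraries (log2 fold change -1.35 ± 0.17 (SE), adjusted p = 1.21e-04). All 78 tested cytosolic ribosomal protein genes were higher in tumor in every alternative that left out a library, with a median of 2.53. Rps2, for instance, had 40983, 31582, 35986 and 38629 in the tumor libraries and 5697, 6251, 5563 and 6331 in the stroma libraries. Of these 78 genes, 38 have a near-identical copy among the genes listed in both tables.

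Most glycolysis genes were higher in tumor. Of 18 tested, 11 were higher in tumor and 4 in stroma, with a median of 1.08. Ldha, which makes lactate, had 8778, 8079, 7863 and 8649.9 in the tumor libraries and 629.9, 841, 802 and 804 in the stroma libraries (log2 fold change 3.44 ± 0.13 (SE), adjusted p = 1.56e-07). Gapdh had a log2 fold change of 3.87 ± 0.21, Eno1 of 3.84 ± 0.35 and Pkm of 0.72 ± 0.14. Toward stroma went Hk1, the hexokinase of red cells and brain, with 299, 391, 277 and 326 in the tumor libraries and 2207, 3845, 3266 and 4616 in the stroma libraries (log2 fold change -3.39 ± 0.24 (SE), adjusted p = 3.06e-06), the glucose transporter Slc2a1 (-1.29 ± 0.36) and Slc16a3, a lactate exporter (-6.16 ± 0.54). Hk2 was not called (0.47 ± 0.19), although its adjusted p was 0.0391 without stroma replicate 4 and 0.0487 without tumor replicate 1.

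Cell cycle genes pointed both ways. Of 50 tested genes of DNA replication and E2F targets, 21 were higher in tumor and 10 in stroma, with a median of 0.40. The helicase subunit Mcm3 had 4905, 4331, 4278 and 4516 in the tumor libraries and 1885, 2282, 1067 and 1693 in the stroma libraries (log2 fold change 1.43 ± 0.22 (SE), adjusted p = 3.64e-04), Mcm5 had a log2 fold change of 0.80 ± 0.13 and Uhrf1, which keeps DNA methylation through replication, of 1.01 ± 0.16. E2f2, a factor of late erythroid divisions among other cycles, had 2009, 1904, 1689 and 1797 in the tumor libraries and 7652, 10033, 8440.4 and 12131 in the stroma libraries (log2 fold change -2.35 ± 0.16 (SE), adjusted p = 2.44e-06). Of 40 tested genes of mitosis and G2/M, 1 was higher in tumor and 22 in stroma, with a median of -0.67. Mki67, the proliferation marker, had 11084, 11552, 12612 and 10526 in the tumor libraries and 57216, 66614, 40542 and 60891 in the stroma libraries (log2 fold change -2.28 ± 0.16 (SE), adjusted p = 3.25e-06). Cenpf (-1.98 ± 0.18) and Cdc25b (-3.32 ± 0.18) were higher in stroma, whereas Cdk1 (-0.03) and Ccnb1 (0.02) were not called. Erythroid genes, described next, moved with these mitosis genes, and their part in this result was not tested.

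Red cell precursor genes gave the widest separation of any list. All 22 tested erythroid genes were higher in stroma, with a median of -9.30, in every alternative that left out a library. Hbb-bs, the adult beta globin gene (chr7:103826534-103828096), had 285, 209, 63.2 and 223 in the tumor libraries and 194089, 196084, 186088 and 148219 in the stroma libraries (log2 fold change -10.04 ± 0.41 (SE), adjusted p = 2.07e-07). The alpha globin gene Hba-a1 had 247, 196, 66.1 and 183 in the tumor libraries and 149630.0, 167989, 150822 and 208409 in the stroma libraries, and it shares most of its sequence with Hba-a2, so the split between these genes is uncertain. Alas2, the first enzyme of heme synthesis in red cells (chrX:150547375-150570638), had 24.1, 10.3, 2.13 and 5.60 in the tumor libraries and 11282, 13454, 10136 and 15524 in the stroma libraries (log2 fold change -10.47 ± 0.55 (SE), adjusted p = 6.06e-07). Tumor replicate 3 was the lowest in each of these genes and tumor replicate 1 the highest.

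Several genes named for red cells lay furthest toward stroma. The 12 ranked protein-coding genes furthest toward stroma included Sptb (-11.40), Dmtn (-11.07), Fhdc1 (-11.01), Hemgn (-10.99), Tmcc2 (-10.75), Tspan33 (-10.75), Trim10 (-10.58), Ermap (-10.45), Hbb-bs (-10.04), Slc4a1 (-9.97) and Fam117a (-9.84). Sptb, a membrane skeleton gene of red cells (chr12:76580488-76710547), had 15.7, 20.4, 7.84 and 18.2 in the tumor libraries and 41416, 49813, 33327 and 47299 in the stroma libraries (log2 fold change -11.40 ± 0.28 (SE), adjusted p = 3.60e-08). Slc4a1, the anion exchanger band 3, had 50.99, 266, 15.1 and 116 in the tumor libraries and 59719, 66547, 67356 and 99269 in the stroma libraries (log2 fold change -9.97 ± 0.71 (SE), adjusted p = 3.61e-06). Tumor values of Slc4a1 varied more than 10-fold, with replicate 2 highest, while its stroma values stayed within a narrow range. The erythroid factor genes followed, with Tal1 at 202, 229, 189 and 233 in the tumor libraries and 5080.4, 5109.8, 4063 and 6812 in the stroma libraries, and Klf1, named after its values were seen, at 8.45, 1.38, 1.17 and 3.66 in the tumor libraries and 2783, 3029.5, 1863 and 2962 in the stroma libraries. Gata1, Epor, Epb42, Rhag, Car1 and Trim58 were listed in the stroma table alone, with means from 239 (Car1) to 2365 (Epb42) normalized counts before rescaling. These means are not on the scale of the rescaled counts above. Summed over the members listed in both tables, erythroid genes reached 732096 to 919851 rescaled counts in stroma and 7728 to 8875 in tumor. The list took 2.38% of all normalized counts in stroma against 0.0635% in tumor, where it was still detected.

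**Figure D3:**
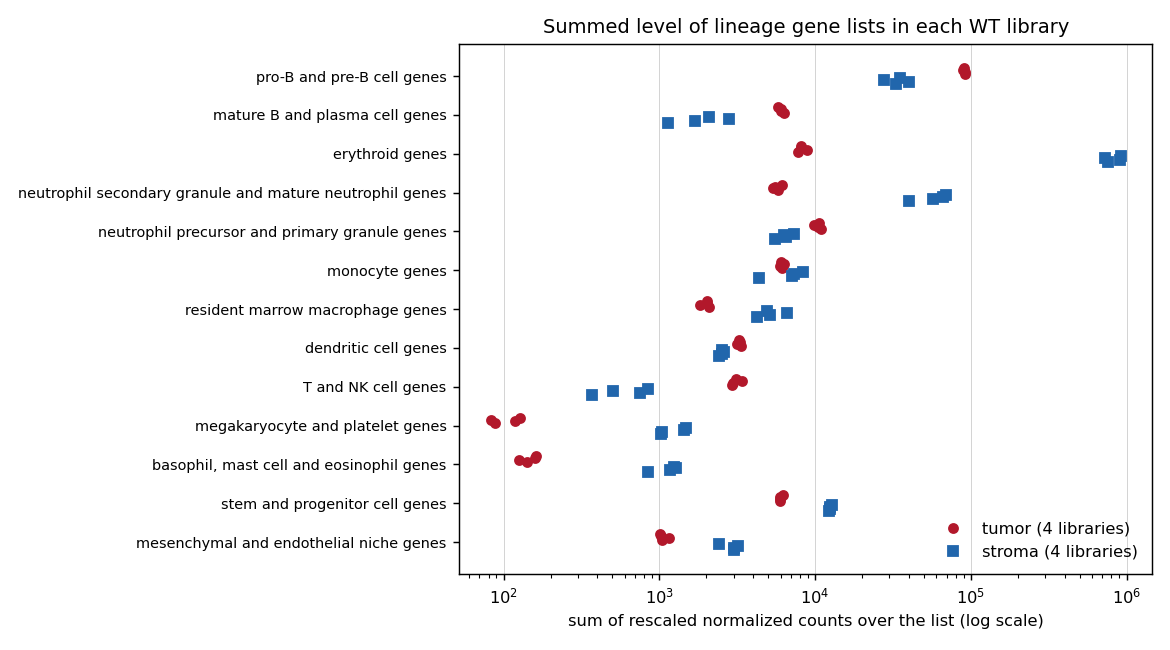
Sum of rescaled normalized counts over the members of each of 13 lineage gene lists that were listed in both tables, on a log scale, with 1 red circle per tumor library and 1 blue square per stroma library. Erythroid genes, at 732096 to 919851 in stroma, and late neutrophil genes, at 39989 to 69683, lie far to the right of tumor, whereas pro-B and pre-B cell genes sum to 89298 to 91346 in tumor and 27634 to 39827 in stroma.

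Genes of maturing neutrophils were higher in stroma. Of 27 tested genes of secondary granules and mature neutrophils, 24 were higher in stroma and 0 in tumor, with a median of -3.98. Ltf, the iron binding lactoferrin of secondary granules, had 305, 385, 404 and 444 in the tumor libraries and 8292, 12609, 13370.5 and 18725 in the stroma libraries (log2 fold change -5.06 ± 0.24 (SE), adjusted p = 3.53e-07). The calprotectin gene S100a8 had 223, 263, 213 and 207 in the tumor libraries and 2002, 2546, 3368 and 2754 in the stroma libraries (log2 fold change -3.53 ± 0.19 (SE), adjusted p = 7.17e-07), and S100a9, its partner, had a log2 fold change of -4.21 ± 0.21. The antimicrobial genes Camp (-3.98 ± 0.25) and Ngp (-3.98 ± 0.18) differed by similar amounts. Csf3r, the G-CSF receptor, had 14.2, 3.29, 13.3 and 25.9 in the tumor libraries and 1312, 1718, 2784 and 2986 in the stroma libraries (log2 fold change -7.37 ± 0.55 (SE), adjusted p = 4.64e-06). Cybb, an oxidase subunit used by B cells and macrophages as well, was not called, at 1851, 1194, 1593 and 1721 in the tumor libraries and 1282, 1416, 2190.1 and 1743 in the stroma libraries.

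The list of neutrophil precursor and primary granule genes was mixed: of 14 tested, 8 were higher in stroma and 4 in tumor. Mpo, the myeloperoxidase gene, had 71.6, 52.5, 50.6 and 82.02 in the tumor libraries and 413, 458, 397 and 775 in the stroma libraries (log2 fold change -2.95 ± 0.31 (SE), adjusted p = 4.13e-05), and Ctsg had a log2 fold change of -4.18 ± 0.52. Elane, the neutrophil elastase gene, had 34.3, 13.5, 17.1 and 23.8 in the tumor libraries and 132, 3.51, 141 and 60.9 in the stroma libraries and was not called (adjusted p = 0.373), but without stroma replicate 2 its log2 fold change was -2.28 (adjusted p = 0.00617). Per kilobase of transcript the mean level in stroma was 5356 for S100a8 and 186 for Mpo. The members higher in tumor were Serpinb1a, a protease inhibitor (1.94 ± 0.25), Srgn (2.34 ± 0.47), Fut8 (1.93 ± 0.29) and Calr (1.44 ± 0.12), which are used by many cell types.

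Of 17 tested monocyte genes, 10 were higher in stroma and 2 in tumor, with a median of -2.53. Csf1r, the receptor for M-CSF, had 101, 40.9, 113 and 47.5 in the tumor libraries and 368, 389.6, 943 and 1372 in the stroma libraries (log2 fold change -3.24 ± 0.52 (SE), adjusted p = 5.49e-04). Ly6c2, a marker of inflammatory monocytes, had 19.8, 26.5, 20.9 and 19.9 in the tumor libraries and 87.1, 189.5, 227 and 265 in the stroma libraries (log2 fold change -2.98 ± 0.44 (SE), adjusted p = 2.99e-04), and F13a1 had a log2 fold change of -3.93 ± 0.30. Irf8 overlapped between compartments (0.07). Toward tumor went Plac8, with 3313, 3253, 3395 and 3139 in the tumor libraries and 159.8, 451, 364 and 337 in the stroma libraries (log2 fold change 3.41 ± 0.29 (SE), adjusted p = 9.92e-06), and the protease gene Ctss (1.23 ± 0.18), both of which lymphoid cells also use. Of 11 tested genes of resident macrophages, 3 were higher in stroma and 1 in tumor. That one was Mrc1, the mannose receptor, with 432, 459.5, 473 and 424 in the tumor libraries and 29.3, 3.51, 0 and 24.3 in the stroma libraries (log2 fold change 5.87 ± 0.99 (SE), adjusted p = 7.18e-04), whereas the complement gene C1qa, at 27.5, 21.8, 25.2 and 16.2 in the tumor libraries and 0, 9.09, 42.98 and 15.98 in the stroma libraries, and Vcam1, at 34.2, 19.1, 21.6 and 35.2 in the tumor libraries and 0, 45.6, 20.7 and 65.6 in the stroma libraries, overlapped. Adgre1, which encodes F4/80, was called higher in stroma (-1.87 ± 0.62, adjusted p = 0.0255) with overlapping groups and lost that call without tumor replicate 2, 3 or 4 (adjusted p from 0.0658 to 0.0743). C1qb and C1qc were listed in the tumor table alone, at means of 56.4 and 38.2 before rescaling. In all, 5 of the 18 members of the macrophage list, with Cd68, Mertk and Siglec1, were listed in the tumor table alone and 0 in the stroma table alone. The count of this list leaves them out.

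Smaller lineages were visible in stroma. Among basophil, mast cell and eosinophil genes, all 4 tested were higher in stroma, and Prg2, the eosinophil major basic protein, had 2.32, 0, 1.15 and 1.57 in the tumor libraries and 439, 437, 571 and 431 in the stroma libraries (log2 fold change -7.82 ± 0.51 (SE), adjusted p = 2.13e-06). Of 5 tested megakaryocyte and platelet genes, 3 were higher in stroma, such as Itga2b (-4.39 ± 0.81) and Vwf, with 5.97, 6.65, 7.22 and 14.01 in the tumor libraries and 537, 357, 354 and 648 in the stroma libraries (log2 fold change -5.67 ± 0.42 (SE), adjusted p = 4.16e-06). Of 8 tested stem and progenitor genes, 4 were higher in stroma and 2 in tumor. Kit had 1.91, 30.4, 2.81 and 1.07 in the tumor libraries and 321, 713, 116 and 227 in the stroma libraries (log2 fold change -5.76 ± 0.92 (SE), adjusted p = 5.12e-04), with tumor replicate 2 above the other tumor libraries, and Meis1 had a log2 fold change of -5.07 ± 0.48. Erg (2.64 ± 0.17) and Msi2 (1.78 ± 0.15) were higher in tumor.

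Most tested genes of mesenchymal and endothelial niche cells, the stroma in the narrow sense, were higher in stroma. Of 12 tested, 7 were higher in stroma and 1 in tumor. Col1a1, the collagen of bone, had 7.09, 144, 9.27 and 10.2 in the tumor libraries and 714, 1198, 414 and 245 in the stroma libraries (log2 fold change -4.83 ± 0.92 (SE), adjusted p = 0.00152), and tumor replicate 2 was far above the other tumor libraries. Kitl, the ligand of Kit, had 2.61, 5.07, 0.629 and 6.71 in the tumor libraries and 269.8, 109, 243 and 122 in the stroma libraries (log2 fold change -5.41 ± 0.65 (SE), adjusted p = 8.62e-05). Summed over the members listed in both tables, the list reached 2430 to 3217 rescaled counts in stroma and 1014 to 1161 in tumor. Of its 6 members listed in 1 table, Alpl, an alkaline phosphatase gene of bone forming cells, had a mean of 13743 normalized counts in the tumor table before rescaling. The sum leaves Alpl out, so its direction holds only for the members listed in both tables. Also before rescaling, Spp1 was listed in the tumor table at 126, Cxcl12 at 36.3, Lepr at 17.8 and Cdh5 at 33.5, while Kdr was listed in the stroma table at 0, 13.4, 3.97 and 9.53. Dendritic cell genes were split, with 4 of 8 higher in stroma, among them Itgax (-4.12 ± 0.62) and Runx2 (-7.57 ± 0.71), and 2 in tumor, Irf4 (2.67 ± 0.22) and Tcf4 (1.04 ± 0.23).

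Genes of T and NK cells were low in stroma. Of 9 tested, 4 were higher in tumor and 0 in stroma: Cd2, with 469.7, 407, 452 and 443 in the tumor libraries and 17.6, 93.7, 67.9 and 42.9 in the stroma libraries (log2 fold change 3.21 ± 0.48 (SE), adjusted p = 3.27e-04), Lck (1.25 ± 0.27), Tcf7 (5.96 ± 1.19; stroma values 0, 58.7, 0 and 3.61) and Il7r. Cd4 was not called, at 29.1, 43.8, 33.3 and 19.9 in the tumor libraries and 38.2, 39.4, 19.3 and 131 in the stroma libraries. Cd3d, Cd3e and Cd8a, the defining genes of T cells, were not listed in either table. The T cell receptor constant gene Trbc1 was listed in the tumor table alone at 745 to 1088 normalized counts before rescaling, and Trac in the same table at 12.2 to 35.5.

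Interferon-stimulated genes were higher in stroma. Of 31 tested, 21 were higher in stroma and 2 in tumor, with a median of -1.89, and with 1 library left out the count higher in stroma ran from 20 to 22. Rsad2, which encodes the antiviral protein viperin (chr12:26442746-26456452), had 5.92, 6.39, 4.58 and 10.1 in the tumor libraries and 3869, 5124, 7536 and 10633 in the stroma libraries (log2 fold change -9.72 ± 0.37 (SE), adjusted p = 1.51e-07). Isg15, a ubiquitin-like modifier, had 33.8, 15.7, 48.01 and 34.97 in the tumor libraries and 1099, 1219.7, 1471 and 1408 in the stroma libraries (log2 fold change -5.34 ± 0.35 (SE), adjusted p = 1.97e-06). Irf7, the factor that amplifies the interferon response, had 35.1, 53.1, 65.4 and 51.8 in the tumor libraries and 973, 946, 2089.9 and 1441 in the stroma libraries (log2 fold change -4.66 ± 0.32 (SE), adjusted p = 3.06e-06). Oas3 (-7.29 ± 0.33), Cmpk2 (-6.75 ± 0.37), Ifit1 (-5.28 ± 0.63) and Ifit3 (-2.82 ± 0.49) moved the same way. The members higher in tumor were Ifi27l2a (2.40 ± 0.54) and Gbp3 (2.69 ± 0.35). The receptor chain gene Ifnar1 was higher in tumor (0.77 ± 0.15, adjusted p = 0.00191), as was Ifngr1 (1.78 ± 0.49, adjusted p = 0.0115). In tumor, Rsad2, Ifit1 and Oas3 were at means of 6.76, 10.96 and 22.6.

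The series was built around IL-6, and Il6 itself was not listed in either table. Interleukin 6 binds Il6ra together with the shared chain Il6st and acts through Jak kinases and Stat3. Of 19 tested genes of the IL-6 family and its signaling, 8 were higher in stroma and 2 in tumor, with a median of -0.85. Il6ra had 127, 116, 153 and 151 in the tumor libraries and 177, 469, 576 and 551 in the stroma libraries (log2 fold change -1.56 ± 0.38 (SE), adjusted p = 0.00621). Il6st had 148, 169, 233 and 127 in the tumor libraries and 344, 303, 298 and 405 in the stroma libraries (log2 fold change -1.02 ± 0.26 (SE), adjusted p = 0.00747). Both receptor chains were detected in tumor at lower levels than in stroma, but once a trend on GC content and length was removed their log2 fold changes were -0.83 (Il6ra, adjusted p = 0.0817) and -0.33 (Il6st, adjusted p = 0.296). Stat3 had 608, 933, 1105 and 1060.1 in the tumor libraries and 654, 1024, 1198 and 1771 in the stroma libraries (adjusted p = 0.469), and Jak1 had 2816, 3094, 2933 and 2971 in the tumor libraries and 1977, 3755, 2259.7 and 2276 in the stroma libraries (adjusted p = 0.293), and the groups of both overlapped; without stroma replicate 2 Jak1 was higher in tumor (0.44, adjusted p = 0.0121). Socs3, the feedback inhibitor of this pathway, was higher in tumor (1.89 ± 0.54, adjusted p = 0.0129), as was the cytokine gene Clcf1 (4.10 ± 1.32, adjusted p = 0.0224), whose stroma values were 0, 34.2, 0 and 44.1, whereas Cebpb, a target in myeloid cells, had 15.4, 12.1, 11.7 and 19.03 in the tumor libraries and 445, 809, 956 and 1407 in the stroma libraries (log2 fold change -5.77 ± 0.40 (SE), adjusted p = 3.01e-06). Without stroma replicate 1, 10 members were higher in stroma and 1 in tumor. With any 1 library left out, 7 to 10 were higher in stroma and 1 to 4 in tumor. Once the trend on GC content and length was removed, the list was nearly even, with 6 higher in stroma and 5 in tumor.

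Of 16 tested cytokines and chemokines, 8 were higher in stroma and 3 in tumor. Il1b, the inflammatory interleukin of myeloid cells, had 2.25, 6.43, 1.73 and 1.27 in the tumor libraries and 273, 539, 453 and 446 in the stroma libraries (log2 fold change -6.90 ± 0.52 (SE), adjusted p = 4.65e-06). Mif, a cytokine that binds Cd74, had 2632, 2316, 2446 and 2444 in the tumor libraries and 189, 205, 196 and 108 in the stroma libraries (log2 fold change 3.85 ± 0.22 (SE), adjusted p = 1.07e-06). Il16 (2.12 ± 0.18) and Tgfb1 (2.03 ± 0.66, adjusted p = 0.0237) were also higher in tumor, and the stroma values of Tgfb1 were 479.7, 5635, 709 and 2293, with replicate 2 close to the lowest tumor value, 5783. The call of Tgfb1 was lost without stroma replicate 1 (adjusted p = 0.0566) and without stroma replicate 3 (adjusted p = 0.0719). Tnf was not called, at 178, 182, 182 and 174 in the tumor libraries and 39.3, 104, 185 and 129 in the stroma libraries, except without stroma replicate 3 (log2 fold change 1.11, adjusted p = 0.0473). Of 36 tested receptors, 10 were higher in tumor and 11 in stroma, which is near the background in both directions, and without stroma replicate 1 these counts were 10 and 17. Toward stroma lay the myeloid receptors Csf2ra (-5.26 ± 0.37), Flt3 (-3.45 ± 0.52), Cxcr2 (-4.82 ± 0.51) and Tnfrsf1a, with 4.21, 4.35, 5.66 and 10.3 in the tumor libraries and 684, 443, 394 and 463 in the stroma libraries (log2 fold change -6.16 ± 0.42 (SE), adjusted p = 2.52e-06). Toward tumor lay Il7r and Tgfbr2 (2.05 ± 0.32). Cxcr4, which holds B precursors in marrow, was not called, at 1104, 892, 979 and 1036 in the tumor libraries and 1178, 1194, 2003 and 1084 in the stroma libraries.

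Ligand and receptor genes were read together for 33 pairs, as levels in the cells that were sorted. Il7r was high in tumor, but its ligand Il7 was listed in the tumor table alone, at 2.50 to 18.6 normalized counts before rescaling. Kitl and Kit were both higher in stroma, as were Csf1 (-1.10 ± 0.27) and Csf1r, and Tnfsf13b (-5.56 ± 0.58) and its receptor Tnfrsf13c (-1.21 ± 0.36), which B cells use for survival. Tgfb1 and Tgfbr2 were both higher in tumor. In the pair of Calr and its receptor Lrp1 the ligand was higher in tumor (1.44 ± 0.12) and the receptor in stroma (-2.19 ± 0.17). Of the 33 pairs, 6 had both genes called in the comparison, of which 2 had both genes higher in tumor, 3 had both higher in stroma and 1 had the ligand higher in tumor and the receptor in stroma.

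Antigen presentation genes differed by class. Of 18 tested genes of MHC class I and antigen processing, 9 were higher in tumor and 3 in stroma, with a median of 0.71. B2m, the light chain shared by class I molecules, had 2721, 3114, 3276 and 2832 in the tumor libraries and 1377, 1621, 898 and 1043 in the stroma libraries (log2 fold change 1.31 ± 0.19 (SE), adjusted p = 3.34e-04). The heavy chain genes H2-K1 (0.18 ± 0.22) and H2-D1 (-0.19 ± 0.16) were not called, and H2-Q7, a nonclassical gene that shares sequence with its neighbors and was named after its values were seen, was higher in stroma (-5.33 ± 0.37). The folding genes Calr, Canx (1.77 ± 0.18) and Pdia3 (2.35 ± 0.13) were higher in tumor. Class II genes were low on both sides: H2-Ab1 had 62.7, 22.4, 19.6 and 27.8 in the tumor libraries and 83.1, 91.6, 72.1 and 100.2 in the stroma libraries (log2 fold change -1.51 ± 0.46 (SE), adjusted p = 0.0179), and Cd74, the invariant chain, had 260.3, 253, 251 and 277 in the tumor libraries and 119, 280.5, 452 and 293 in the stroma libraries. Of 13 tested, 3 were higher in tumor and 4 in stroma, with a median of 0.01, and without stroma replicate 1 the counts were 1 and 5. H2-Ab1 lost its call without tumor replicate 2, 3 or 4, with adjusted p from 0.0501 to 0.0601.

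Of 10 tested checkpoint and costimulation genes, 6 were higher in stroma and 1 in tumor. The list has 33 members, of which 9, such as Pdcd1 and Ctla4, were listed in the tumor table alone and 3 in the stroma table alone. The count leaves these out, so its direction holds only for the members listed in both tables. Cd274, which encodes PD-L1, had 38.8, 28.2, 38.99 and 42.2 in the tumor libraries and 203, 206, 297 and 178 in the stroma libraries (log2 fold change -2.53 ± 0.33 (SE), adjusted p = 1.35e-04). Vsir, which encodes VISTA, had 41.4, 111, 69.8 and 90.9 in the tumor libraries and 2096, 5629, 2963 and 7313 in the stroma libraries (log2 fold change -5.75 ± 0.44 (SE), adjusted p = 5.15e-06), and Tnfrsf14 had 87.4, 55.6, 96.00 and 71.8 in the tumor libraries and 2589.8, 3638, 2077 and 3817 in the stroma libraries (log2 fold change -5.25 ± 0.27 (SE), adjusted p = 4.94e-07). Lgals9, the galectin that was higher in tumor, had 5161, 4765, 5262 and 5327 in the tumor libraries and 496, 388, 607 and 477 in the stroma libraries (log2 fold change 3.40 ± 0.16 (SE), adjusted p = 3.13e-07). Cd47, the signal against phagocytosis, had a log2 fold change of -1.48 ± 0.16. Hmgb1, a nuclear protein that acts as a danger signal once released, was higher in tumor, at 14838 ± 902 in tumor and 3666 ± 1109 in stroma (SD, n = 4 each; log2 fold change 2.06 ± 0.20 (SE), adjusted p = 2.37e-05).

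Adhesion genes were called in both directions. Of 21 tested, 11 were higher in stroma and 6 in tumor. The leukocyte integrin genes Itgb2 (-2.01 ± 0.19), Itgam (-4.72 ± 0.19) and Itgal (-1.30 ± 0.32) and the alpha 4 chain Itga4 (-0.72 ± 0.13) were higher in stroma. Itgb1 (1.14 ± 0.14), Selplg (2.37 ± 0.57) and Pecam1 (1.42 ± 0.21) were higher in tumor, and so was the laminin receptor chain Itga6, named after its values were seen, with 1232, 1174, 1124 and 1205 in the tumor libraries and 71.5, 154, 135 and 198 in the stroma libraries (log2 fold change 3.17 ± 0.30 (SE), adjusted p = 1.91e-05). Of 27 tested genes of innate sensing, 9 were higher in stroma and 6 in tumor. Tlr4, the endotoxin receptor, had 345, 372, 326 and 353 in the tumor libraries and 0, 12.2, 7.54 and 86.8 in the stroma libraries (log2 fold change 5.13 ± 1.12 (SE), adjusted p = 0.00320), whereas Ifih1, a sensor of viral RNA, was higher in stroma (-2.64 ± 0.29).

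Trp53 was higher in tumor, while most called genes of its pathway were higher in stroma. Of 21 tested, 13 were higher in stroma and 5 in tumor, with a median of -1.34. Trp53 had 1843, 1764, 1780.2 and 1819 in the tumor libraries and 277, 544, 349 and 344 in the stroma libraries (log2 fold change 2.29 ± 0.21 (SE), adjusted p = 1.58e-05). Mdm2, its inhibitor and target, had 493, 488, 623 and 555 in the tumor libraries and 1009.9, 754, 1893 and 1071 in the stroma libraries (log2 fold change -1.05 ± 0.27 (SE), adjusted p = 0.00739). The antiproliferative gene Btg2 had 270.0, 251, 269 and 246 in the tumor libraries and 4184, 5064, 3578 and 4411 in the stroma libraries (log2 fold change -4.04 ± 0.15 (SE), adjusted p = 1.46e-07), and the cell cycle inhibitors Cdkn1b (-2.37 ± 0.15) and Cdkn2c (-1.86 ± 0.19) were also higher in stroma. Cdkn2a and Cdkn1a were listed in the tumor table alone, at means of 1824 and 349.5 normalized counts before rescaling.

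The injected line is male, the study used mice of both sexes, and the labels do not give the sex of these hosts. Genes of the Y chromosome were detected in all 4 stroma libraries as well as in all 4 tumor libraries. Ddx3y had 394, 431, 459.6 and 462 in the tumor libraries and 589.7, 721, 603 and 613 in the stroma libraries, Kdm5d had 456, 412, 438 and 357 in the tumor libraries and 267, 426, 276 and 293 in the stroma libraries, and Uty had 189, 201, 180.3 and 165 in the tumor libraries and 188, 228, 347 and 255 in the stroma libraries. Kdm5d and Uty overlapped between compartments, and Ddx3y was called higher in stroma (-0.53 ± 0.16, adjusted p = 0.0186), a call lost without tumor replicate 1 (adjusted p = 0.0721) or 2 (adjusted p = 0.0571). Without stroma replicate 2 Kdm5d was called higher in tumor (0.56, adjusted p = 0.0307), and without stroma replicate 1 Uty was called higher in stroma (-0.61, adjusted p = 0.0384). Eif2s3y did not follow them, with 2.69, 6.59, 5.16 and 5.57 in the tumor libraries and 461, 892, 485 and 1031 in the stroma libraries (log2 fold change -6.86 ± 0.44 (SE), adjusted p = 1.91e-06), while its X-linked relative Eif2s3x was higher in tumor (1.58 ± 0.34). Xist and Tsix were not listed in either table. No gene of the mCherry marker was among those tested here.

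Gene class and gene length moved with the comparison. Among 10520 protein-coding genes 34.5% were higher in tumor and 27.7% in stroma, with a median of 0.30, whereas among 354 processed pseudogenes 6.78% were higher in tumor and 61.9% in stroma, with a median of -3.35. The median log2 fold change of protein-coding genes was 1.87 for transcripts of 600 to 1000 nucleotides and declined with each longer class to -0.71 for those over 10000 nucleotides. Genes of the ribosome are short, and after a trend on length and GC content was removed all 78 ribosomal protein genes and 36 of the 40 ribosome biogenesis genes were called higher in tumor, and all 22 erythroid genes higher in stroma. The 13 protein genes of the mitochondrial genome had a median of -1.20, with 11 higher in stroma, such as mt-Co1 (-1.95 ± 0.22) and mt-Nd4 (-2.14 ± 0.12). A few noncoding RNAs took large shares of the libraries: the signal recognition particle RNA Rn7s1 took 32.6% of normalized counts in stroma (19.4% to 50.3%) and 3.71% in tumor, Gm26917 took 23.5% and 17.2%, Gm42418 took 9.09% and 3.44%, and mt-Rnr2 took 1.73% and 0.407%. Among autosomes and the X chromosome the median ranged from 0.04 on chromosome 17 to 0.63 on chromosome 16. The part of RNA composition and of length in the gene lists above was not tested beyond the trend removal.

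**Figure D4:**
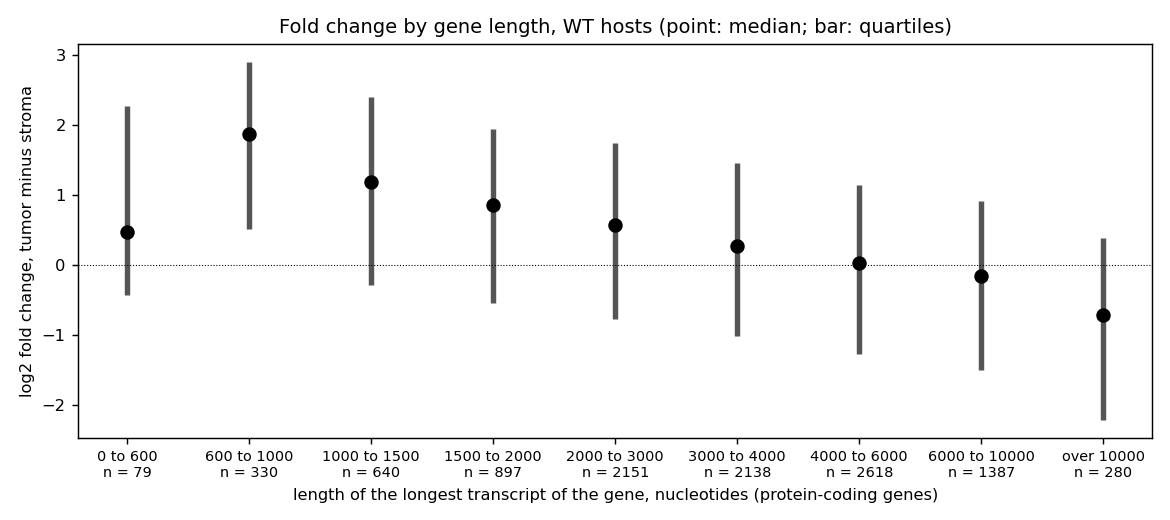
Log2 fold change of tumor minus stroma in WT hosts for protein-coding genes grouped by the length of the longest transcript in nucleotides, with points at the median and bars from the first to the last quartile. Medians run from 1.87 at 600 to 1000 nucleotides to -0.71 above 10000 nucleotides, and the shortest class, with 79 genes, lies at 0.46.

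Some genes could not be compared because they were listed in 1 table. The tumor table listed 3268 genes that the stroma table did not, of which 579 were protein-coding with a mean over 100 normalized counts before rescaling. The stroma table listed 1532 that the tumor table did not, of which 82 were protein-coding with a mean over 100 before rescaling. Because the tables were normalized apart, a value of 100 is not the same level in both, and the 579 and 82 cannot be compared. Among these protein-coding genes, those with the highest means before rescaling, named after their values were seen, were Cdh17 (14144), Alpl (13743), Gem (7276) and Bcat1 (5722) in tumor. In stroma they were Sox6 (2790), Epb42 (2365) and Btnl10 (2082). The means for tumor and for stroma are not on one scale. Cdh17 encodes a cadherin, Alpl an alkaline phosphatase that B cell precursors and bone cells make, and Sox6 a factor of red cell maturation. No fold change is given for a gene listed in 1 table.

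The same comparison in IL-6 KO hosts used no library of the WT comparison. Of 11662 genes tested there, 3317 were higher in tumor (28.4%) and 2908 in stroma (24.9%), and 53.3% of these calls were toward tumor, against 42.3% when the libraries were scaled over genes with a mean over 100 in both compartments. Among 11635 genes tested in both hosts, 2707 were called higher in tumor in both, which is 72.7% of the WT calls and 81.6% of the IL-6 KO calls, and 2503 were called higher in stroma in both, or 72.8% and 86.3%. Of the WT calls, 97.6% of those toward tumor and 96.0% of those toward stroma had the same sign in IL-6 KO hosts. Log2 fold changes of both hosts correlated across genes at a Spearman rho of 0.888, with the caution that genes are not independent replicates. Igll1 had a log2 fold change of 6.82 in WT and 6.10 in IL-6 KO hosts, Hbb-bs of -10.04 and -10.32, Ltf of -5.06 and -4.95, and Rsad2 of -9.72 and -9.34. The pro-B and pre-B cell list had a median of 2.95 in IL-6 KO hosts, with 21 of 29 tested genes higher in tumor and 2 in stroma, and all 22 erythroid genes were again higher in stroma.

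**Figure D5:**
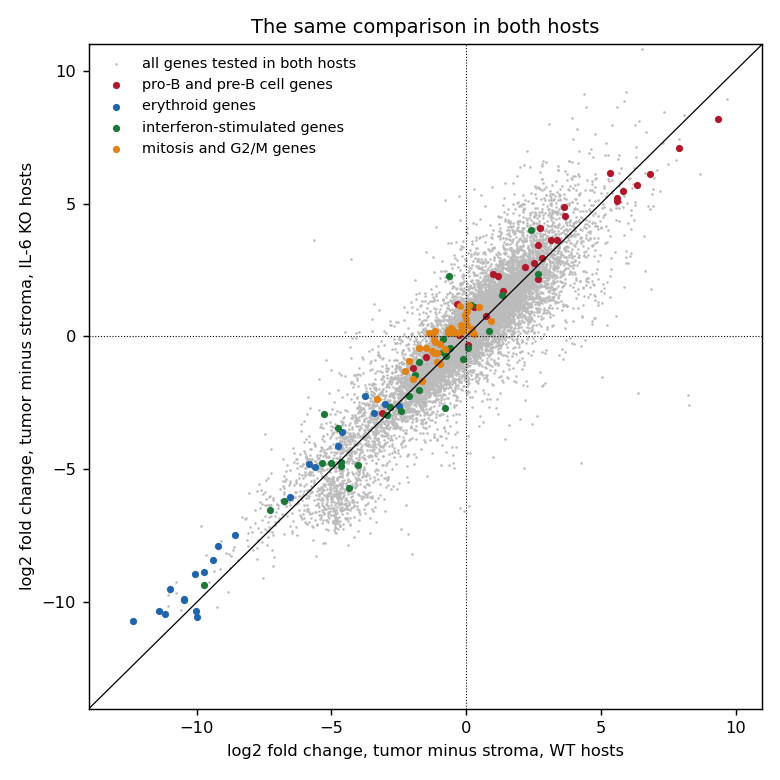
Log2 fold change of tumor minus stroma in WT hosts (horizontal) against that in IL-6 KO hosts (vertical), with 1 grey point per gene tested in both and 4 gene lists in color on a line of equality. Erythroid genes lie at the lower left in both hosts and B cell precursor genes at the upper right, while mitosis genes lie somewhat above the line, with medians of -0.67 in WT and 0.14 in IL-6 KO hosts.

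Some lists were less alike between hosts. Mitosis and G2/M genes had a median of -0.67 in WT hosts, with 1 gene higher in tumor and 22 in stroma, and of 0.14 in IL-6 KO hosts, with 5 and 8. Mki67 had a log2 fold change of -2.28 in WT and -1.30 in IL-6 KO hosts (adjusted p = 0.00107), and Top2a had -0.68 and 0.26 (adjusted p = 0.338). Mitochondrial protein genes had 11 of 13 higher in stroma in WT hosts and 2 in IL-6 KO hosts. The difference between hosts was not tested, and stroma libraries varied more in IL-6 KO hosts, where the median SD of log2 values was 0.89 against 0.66 in WT hosts. The 7 genes called in opposite directions were Rnf135, Rangap1, Polr3b, Itpk1, Tnfrsf13c, Gm11336 and Gm4316, named because their calls differed. Tnfrsf13c, the BAFF receptor, had 70.4, 71.2, 54.7 and 79.9 in the tumor libraries and 101, 141, 184 and 249 in the stroma libraries in WT hosts (log2 fold change -1.21 ± 0.36 (SE), adjusted p = 0.0156) and a log2 fold change of 2.98 in IL-6 KO hosts (adjusted p = 0.0333). Its WT call was lost without tumor replicate 3 (adjusted p = 0.0515).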

How the data were processed

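Sorted marrow of leukemic mice was measured by bulk RNA sequencing after ribosomal RNA depletion, with 4 libraries in each of 4 groups of compartment and host. Per the methods of the study and the submitters' processing notes, reads were quantified with Salmon 1.3.0 against mm10 and normalized with DESeq2 1.28.1. The deposited values are such normalized counts, a signal that the authors made in 1 table for tumor and 1 for stroma, so they are not raw counts, and whole reads could not be recovered from them. No per-sample columns of other series were used (0 present), and the tables were joined by Ensembl identifier. The 8 columns of a host were rescaled by the median ratio over genes above 0 in all 8, and genes with a mean over 10 in either compartment were tested on log2(value + 1) with limma 3.58.1 in R 4.3.3 (empirical Bayes with a variance trend, two-sided, Benjamini-Hochberg adjustment over all tested genes, threshold 0.05), without the replicate number as a term. Gene positions come from GENCODE vM21 (GRCm38), and promoter sequences from RefSeq GRCm38.p6. A gene was taken to have a near-identical copy where BLAST 2.17.0 aligned 150 nucleotides or more of it to another gene at 97% identity or more.

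The comparison and the gene lists were chosen with earlier results of these data known. Named genes are the first 4 members of each list and up to 4 others with the largest mean, the 12 largest differences in each direction, genes of the sort checks, genes the study names, the ligand and receptor pairs, and the 5 largest shares in each compartment. Named outside this rule, after their values were seen, were Blk, Blnk, Btk, Cd72, Cd79b, Cebpb, Clcf1, Cybb, Dntt, Ebf1, Gbp3, H2-Q7, Ifi27l2a, Itga6, Klf1, Lef1, Pou2af1, Rag1, Slc16a3, Socs3, Vpreb2, Vpreb3 and the genes called in opposite directions in the hosts. Results for some genes that the rule would name are not reported here. The fit was tested on simulated data with known changes. In each host 100 genes were changed by 1 and 100 by 2, among 11783 genes for WT and 11662 for IL-6 KO hosts. In the WT data far more genes, 7181, were called, and the adjustment of p depends on how many genes change. The numbers recovered therefore do not give the power of the comparison in these data. For WT hosts it recovered 20 of 100 genes changed by 1 on the log2 scale and 56 of 100 changed by 2. For IL-6 KO hosts it recovered 12 and 31 of 100. False calls numbered 17 in each host, beside the 20 and 56 genes recovered for WT and the 12 and 31 for IL-6 KO hosts. In these simulations the share of false calls was thus above the threshold set on the adjusted p. That share also depends on how many genes change, so it does not give the share of false calls in these data. A gene that was not called may still differ, and a called gene may be a false call. Depth was estimated from the step between low values, and the precision of a gene near 0 is limited by it. Alternatives changed the scaling, the pseudocount, the filter, the weights, the variance trend, the replicate block, the GC content and length trend and the libraries used.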

Additional observations from a re-analysis of the deposited data

Results flagged for a closer look

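Within a group of 4 libraries, a value was marked when its gap to the nearest other library, divided by the range of the group on the log2(value + 1) scale, was above Dixon's 95% critical value for 4 samples. Of 420 groups examined for 210 printed genes, 24 were marked, and chance marks about 1 in 20 groups. In tumor, the highest library stood apart for Blnk (tumor replicate 1, 0.920), Ccnd3 (tumor replicate 3, 0.931), Col1a1 (tumor replicate 2, 0.886), Cr2 (tumor replicate 3, 0.883), Fhdc1 (tumor replicate 4, 0.942) and Syk (tumor replicate 3, 0.833), where the number is the ratio of gap to range. The lowest tumor library stood apart for Blk (tumor replicate 4, 0.914), Cd79a (tumor replicate 2, 0.895), Cmpk2 (tumor replicate 2, 0.862) and Oas3 (tumor replicate 2, 0.865). In stroma, the highest library stood apart for Cxcr4 (stroma replicate 3, 0.843), Pou2af1 (stroma replicate 4, 0.875), Prg2 (stroma replicate 3, 0.937), Selplg (stroma replicate 3, 0.873) and mt-Rnr2 (stroma replicate 4, 0.903). The lowest stroma library stood apart for Blnk (stroma replicate 1, 0.928), Cd47 (stroma replicate 3, 0.929), Dmtn (stroma replicate 3, 0.880), Ebf1 (stroma replicate 1, 0.879), Irf8 (stroma replicate 1, 0.832), Ldha (stroma replicate 1, 0.838), Mif (stroma replicate 4, 0.871), Tnfsf13b (stroma replicate 2, 0.895) and Top2a (stroma replicate 3, 0.861). Stroma replicate 1, the shallowest library, accounted for 4 of the 24.

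For 5 genes all tumor libraries lay on one side of all stroma libraries in WT hosts and on the other side in IL-6 KO hosts, and the difference between hosts was not tested. Gm11336 had a log2 fold change of -5.65 in WT and 3.64 in IL-6 KO hosts. Gm4316 had a log2 fold change of -0.62 in WT and 1.02 in IL-6 KO hosts. Polr3b had a log2 fold change of -0.76 in WT and 0.64 in IL-6 KO hosts. Rnf135 had a log2 fold change of 2.76 in WT and -1.35 in IL-6 KO hosts. Tnfrsf13c had a log2 fold change of -1.21 in WT and 2.98 in IL-6 KO hosts.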

How the results depend on the processing

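Over all alternatives the counts of called genes ran from 3039 to 4030 toward tumor and from 2620 to 3997 toward stroma in WT hosts, and from 2543 to 3655 and 2051 to 3466 in IL-6 KO hosts. Leaving out 1 library gave 3164 to 3909 and 3138 to 3813 in WT hosts and 2582 to 3521 and 2525 to 3199 in IL-6 KO hosts. Scaling over genes with a mean over 100 in both compartments lowered the median of all genes by 0.28 in WT hosts and gave 3039 genes toward tumor and 3997 toward stroma, so that 43.2% of calls were toward tumor against 51.8%; in IL-6 KO hosts it gave 2543 and 3466. With the replicate block the counts in WT hosts were 3588 and 3271, and with the GC content and length trend also removed 3815 and 2990. Libraries of the same number did not deviate together (correlations from -0.055 to 0.083 in WT and from -0.026 to 0.071 in IL-6 KO hosts). This cannot decide whether they came from the same mouse, since the compartments of a mouse need not deviate together. Of 216 named genes called in WT hosts, 188 stayed called the same way under every alternative and 28 lost the call under at least 1. Among the called genes, the sign turned for mt-Nd3 (0.037, also with the replicate block) once the GC content and length trend was removed. It also turned for Gm26917 (0.67), Gm42418 (0.20) and Rn7sk (0.94) under quantile normalization. Ccnb1, Il17ra and H2-Aa were not called in the main comparison but were called with the opposite sign under an alternative. For Ccnb1 (-0.37) and Il17ra (0.34) this was the removal of the GC content and length trend, and for H2-Aa (-1.06) leaving out WT stroma replicate 1. The cause was not tested.

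List medians moved beyond the spread of replicates as follows. With a mean over 10 asked in both compartments, which tests fewer genes, they were -0.27 for IL-6 family, 2.23 for T and NK cell, 0.014 for adhesion, -1.56 for basophil, mast cell and eosinophil, 0.70 for cytokine, -1.27 for dendritic cell, -7.55 for erythroid, 2.82 for mature B cell, -3.65 for megakaryocyte, -1.85 for niche, -1.21 for monocyte, -1.13 for neutrophil precursor and 0.21 for innate sensing genes. The T and NK cell median was 0.58 with the filter over all 8 libraries. A pseudocount of 5 gave -3.12 for basophil and -8.74 for erythroid genes, and quantile normalization gave -8.74 for erythroid, -2.37 for niche, -1.90 for monocyte and 0.46 for macrophage genes. Summing near-identical copies gave -2.37 for cytokine and -1.81 for monocyte genes, and no filter gave -1.10 for cytokine and -1.89 for megakaryocyte genes. With 1 library left out the medians ran from -0.35 to 0.66 for T and NK cell, -1.98 to -1.10 for cytokine, -3.12 to -2.01 for megakaryocyte, -0.86 to 0.26 for macrophage and -3.78 to -2.79 for stem and progenitor genes. Medians of the MHC class II, STAT5, T and NK cell, macrophage, adhesion, cytokine and innate sensing lists changed sign under some alternative. The planned share of the largest heavy chain variable gene was not run, since those genes were listed in the tumor table alone. Depth limits genes near 0 in 1 compartment, whose fold changes depend on the pseudocount.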
